A study of Homo sapiens with 6 samples.

Results

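Hedgehog signalling and the transcription factors of the gut mesenchyme were examined in the fibroblast cell line CCD18Co, from human colon, after silencing of *LTBP2*. The members were chosen by symbol, as 10 of the 60663 genes in the table of counts. They are *PTCH1*, *SMO*, *GLI1*, *GLI2*, *GLI3* and *HHIP* of the Hedgehog pathway and *FOXF1*, *FOXF2*, *FOXL1* and *NKX2-3* of the gut mesenchyme, and each symbol had 1 row. Cells were transfected for 6 h with pooled siRNAs, either targeting *LTBP2* (siLTBP2) or without a target (siNT), both carried by lipofectamine 2000, and frozen 48 h after transfection. There were 3 libraries of each, all from the same line, and 1 pool stands for each treatment. Nothing in the sources used here says that the libraries of a group came from separate cultures, so p-values measure the spread between these libraries, which may be technical.

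In the gut, Hedgehog ligands are made by the epithelium and received by the mesenchyme beneath it. The ligand binds PTCH1, which otherwise holds the transducer SMO inactive in the primary cilium, and active SMO turns the GLI proteins into transcriptional activators. *GLI1*, *PTCH1* and *HHIP* are themselves induced by the pathway, and FOXF1, FOXF2 and FOXL1 are forkhead factors of the mesenchyme downstream of it. NKX2-3 is a homeobox factor of the mesenchyme of the intestine and spleen.

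Silencing of *LTBP2* was accompanied by lower levels of *PTCH1*, *GLI2* and *FOXF1*, while *GLI1* did not pass the test. *PTCH1*, the receptor, was at 50% of its siNT level, *GLI2* at 71.0% and *FOXF1* at 73.0%. *FOXL1* was at 76.5% of siNT but missed the threshold in the main fit, and *FOXF2* was at 103%. Other tests without pairing of replicates called *FOXL1* lower, as did the fit with pairing. *HHIP*, the decoy of the ligand, was hardly counted at all. In these bulk libraries, fewer expressing cells and less RNA per cell cannot be told apart.

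The sequence next to the main start of *PTCH1* is shown because it holds letters that GLI proteins are known to bind. RefSeq promoter windows, from 250 bases before to 50 bases after a start on GRCh38.p14, were at hand for 6 of the 10 members, namely *PTCH1*, *SMO*, *GLI2*, *HHIP*, *FOXF2* and *NKX2-3*, in 11 windows. The GLI motif GACCACCCA was searched on both strands. It occurred in 83 of 35116 promoter windows, or 0.24%, and among the members' windows only in that of the start of the canonical *PTCH1* transcript. The 250 bases before this start lie at chr9:95509267-95509516 on the minus strand, and capitals mark the motif as read on that strand, TGGGTGGTC, which ends 163 bases before the start.
PTCH1 promoter: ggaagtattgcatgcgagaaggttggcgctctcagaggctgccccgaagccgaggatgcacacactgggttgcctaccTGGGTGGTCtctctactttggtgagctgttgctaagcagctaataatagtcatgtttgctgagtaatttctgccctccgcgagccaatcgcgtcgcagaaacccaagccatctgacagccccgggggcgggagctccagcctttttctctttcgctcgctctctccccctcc

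The forkhead motif TGTTTAC, searched on both strands, occurred in 3.42% of all windows and in 2 of the 5 windows of *PTCH1*, neither of them at the canonical start. A match describes the letters only, and no binding was measured here.

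Before the members, the libraries were checked. The library totals of counted reads ran from 44663424 to 53576899. *LTBP2* itself had 23.1 ± 1.89 CPM in siNT, and 7.03 ± 1.39 CPM or 30.4% of that was left in siLTBP2 (SD, n = 3), with no overlap, where CPM are counts scaled to library size with TMM factors. All 10 fibroblast markers were counted well above background, with a summed level of 9634 to 12794 CPM in siNT against 9760 to 13783 CPM after siLTBP2. *VIM* and the collagens make up most of that sum, and *PDGFRB* alone of the list was called lower (-0.60, edgeR QL adjusted p = 0.0025). *EPCAM* and *CDH1* of the epithelium, *CDH5* and *KDR* of the endothelium, *PTPRC* and *CD3E* of immune cells, and *MYH11* and *DES* of mature smooth muscle had at most 8 counts in any library, and *KRT20* and *SOX10* had 0. Other genes of the same lists had more. *VWF* of the endothelium had 37 to 85 counts, with a log2 fold change of -0.71 (edgeR QL adjusted p = 0.065). *PECAM1* reached 12, *CD79A* 21, *CD68* 15 and *CDX2* 14 counts in a library. The summed level of the 6 smooth muscle markers was 284 to 320 CPM in siNT and 464 to 481 CPM in siLTBP2, carried by *SMTN*, *ACTG2* and *ACTA2*. Most of the rise was *SMTN*, with 194 ± 13.1 and 335 ± 13.4 CPM (SD, n = 3). *SMTN* (0.79, edgeR QL adjusted p = 2.4e-04) and *ACTG2* (0.57, adjusted p = 0.0056) were higher, while *ACTA2* was not called (0.23, adjusted p = 0.31). The 3 markers of interstitial cells of Cajal summed to 17.0 to 22.9 CPM in siNT and 47.6 to 59.9 CPM in siLTBP2. The sum of the Cajal markers is nearly all *ETV1*, which was higher (log2 fold change 1.49, adjusted p = 7.5e-05), while *ANO1* of the same list was lower (-1.53, adjusted p = 0.0068) and *KIT* overlapped between groups. The 6 epithelial markers summed to 9.43 to 11.6 CPM in siNT and 12.5 to 13.6 CPM in siLTBP2, nearly all from *KRT8*, and the 7 subepithelial fibroblast markers to 1629 to 2011 CPM and 1156 to 1314 CPM, with *BMP7* at 0. Of these, *F3* (-1.07, adjusted p = 3.4e-04), *WNT5A* (-0.79, adjusted p = 8.6e-04) and *SOX6* (-1.26, adjusted p = 0.0060) were lower, while *PDGFRA* had 407 ± 66.1 and 525 ± 164 CPM (SD, n = 3) and a log2 fold change of 0.37 (adjusted p = 0.25). The 5 endothelial markers summed to 1.52 to 2.03 CPM in siNT and 0.854 to 1.42 CPM in siLTBP2, while the sums of the immune and the glial and neuronal markers were at most 0.613 CPM. Their part in the changes below was not tested.

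The change of each gene was tested in a fit across the 16920 genes kept by the low-count filter, using the quasi-likelihood (QL) test of edgeR, and p-values were adjusted over all of them by Benjamini-Hochberg. A gene is called deregulated by the study's thresholds, a fold over 2 with an adjusted p under 0.01. A second rule asks only for an adjusted p under 0.05. Of the 10 members, 9 were tested and *HHIP* was not. None of the 9 was deregulated, where 2.57% of all tested genes were, 1.29% higher and 1.27% lower. Without the fold, an adjusted p under 0.01 was reached by 2 of the 9, *PTCH1* and *GLI2*, both lower, and by 9.16% of all tested genes, 4.38% lower. By the second rule, 3 were lower in siLTBP2 and 0 higher, while 9.51% of all tested genes were lower and 9.76% higher. The median log2 fold change of the 9 genes was -0.39, with 6 negative values and 3 positive ones, against -0.01 over all tested genes. The groups did not overlap in 4 of the 9, of which 3 were lower and 1 higher, while 37% of all tested genes did not overlap, 18.3% lower and 18.7% higher. With 3 libraries against 3, the exact permutation test of a single gene cannot give a p below 0.1.

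**Figure D1:**
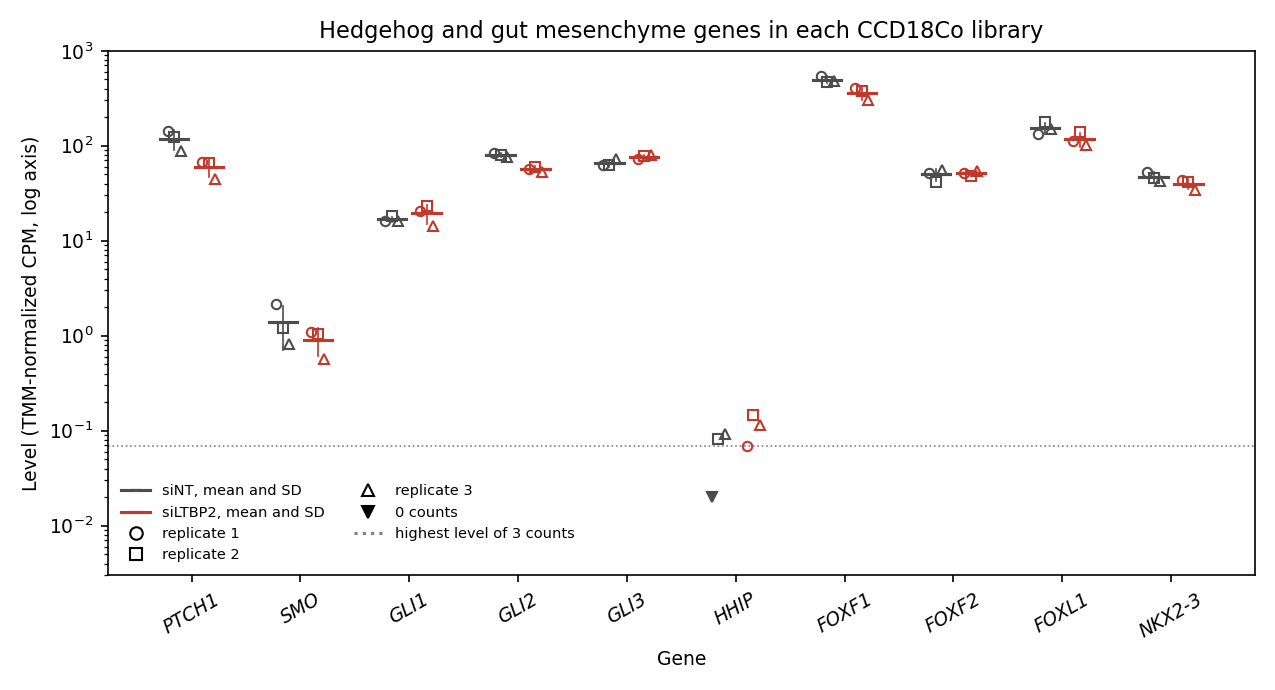
Level of each of the 10 genes in each library (vertical axis, TMM-normalized CPM on a log scale), with siNT in grey and siLTBP2 in red. Horizontal bars are means and vertical bars SD over 3 libraries, drawn for all genes but HHIP. The groups are apart for PTCH1, GLI2, GLI3 and FOXF1 and overlap for SMO, GLI1, FOXF2, FOXL1 and NKX2-3, and HHIP lies near the level of 3 counts.

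*PTCH1* (ENSG00000185920) encodes the Hedgehog receptor and is read from the minus strand at chr9:95442980-95517057 of GRCh38, and its canonical transcript has 24 exons. Its level was 142, 124 and 88.8 CPM in siNT replicates 1 to 3 and 66.7, 65.9 and 44.5 CPM in siLTBP2 replicates 1 to 3. The groups did not overlap, and replicate 3 was the lowest of both groups. The means were 118 ± 26.8 CPM in the siNT group and 59.0 ± 12.6 CPM after siLTBP2 (SD, n = 3). The log2 fold change was -0.999 (standard error, SE, 0.18, 95% interval -1.40 to -0.59, edgeR QL adjusted p = 0.0040). The adjusted p was past the stricter threshold and the fold was just short of 2. The fold was above 2, and *PTCH1* deregulated, with upper-quartile factors, with total counts, with no low-count filter and when 1 CPM was required in 3 libraries. It was so too without siNT replicate 3 (-1.17) and without siLTBP2 replicate 1 (-1.09), and the smallest change was -0.83, without siLTBP2 replicate 3. An unnamed noncoding gene (ENSG00000271155) overlaps exons of *PTCH1* on the other strand, with at most 38 counts in a library.

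*SMO* (ENSG00000128602), the transducer that PTCH1 restrains, had few reads. Its counts were 99, 59 and 44 in siNT and 48, 49 and 30 in siLTBP2, so the groups overlapped. The levels were 1.38 ± 0.68 and 0.90 ± 0.29 CPM (SD, n = 3), a log2 fold change of -0.62 (SE 0.37, 95% interval -1.43 to 0.20, edgeR QL adjusted p = 0.28). The change was -0.17 without siNT replicate 1, the library with the most reads of this gene, and -0.36 without siLTBP2 replicate 3. At this depth a change of the size seen for *PTCH1* lies within the interval.

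*HHIP* (ENSG00000164161), which encodes a membrane protein that binds the ligand without signalling, had 0, 4 and 5 counts in siNT and 3, 7 and 6 in siLTBP2. A count of 3 corresponds to between 0.056 and 0.069 CPM in these libraries. The gene was removed by the low-count filter, and no fold is given for so few reads. The gene was thus near the limit of detection in both groups.

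The GLI genes, which encode the zinc finger transcription factors at the end of the pathway, gave 1 call among the 3. *GLI1* (ENSG00000111087) acts as an activator and its transcript is a usual readout of the pathway. Its level was 16.2, 18.1 and 16.2 CPM in siNT and 20.7, 23.0 and 14.4 CPM in siLTBP2. Replicates 1 and 2 of siLTBP2 were above all siNT libraries and replicate 3 was below them. The means were 16.8 ± 1.09 and 19.4 ± 4.42 CPM (SD, n = 3), with a log2 fold change of 0.20 (SE 0.16, 95% interval -0.15 to 0.55, edgeR QL adjusted p = 0.42). Without siLTBP2 replicate 3 the change was 0.38 with an adjusted p of 0.042 from the same test, so this 1 library decides the call. The gene shares exon bases with *ARHGAP9* on the other strand, which had at most 22 counts in a library.

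*GLI2* (ENSG00000074047), known as the main activator of the pathway, was lower in siLTBP2. It was at 83.6, 80.9 and 75.2 CPM in siNT and at 57.5, 60.0 and 52.6 CPM in siLTBP2. The groups were well apart, with means of 79.9 ± 4.28 and 56.7 ± 3.77 CPM (SD, n = 3). The log2 fold change was -0.49 (SE 0.09, 95% interval -0.69 to -0.30, edgeR QL adjusted p = 0.0031). It stayed between -0.54 and -0.44 with each library left out in turn, and the adjusted p was at most 0.015.

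*GLI3* (ENSG00000106571), known mainly as a repressor in the absence of ligand, had 62.9, 62.3 and 71.7 CPM in siNT and 72.0, 78.2 and 79.6 CPM in siLTBP2. All siLTBP2 libraries were above all siNT libraries, by a narrow margin. The log2 fold change of 0.22 (SE 0.09, 95% interval 0.03 to 0.42) had an edgeR QL adjusted p of 0.11 and was not called. With the replicate number as a block in the fit (replicate block), the adjusted p from the same test was 0.014. The SE was then 0.072, as it was for *PTCH1* in that fit.

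**Figure D2:**
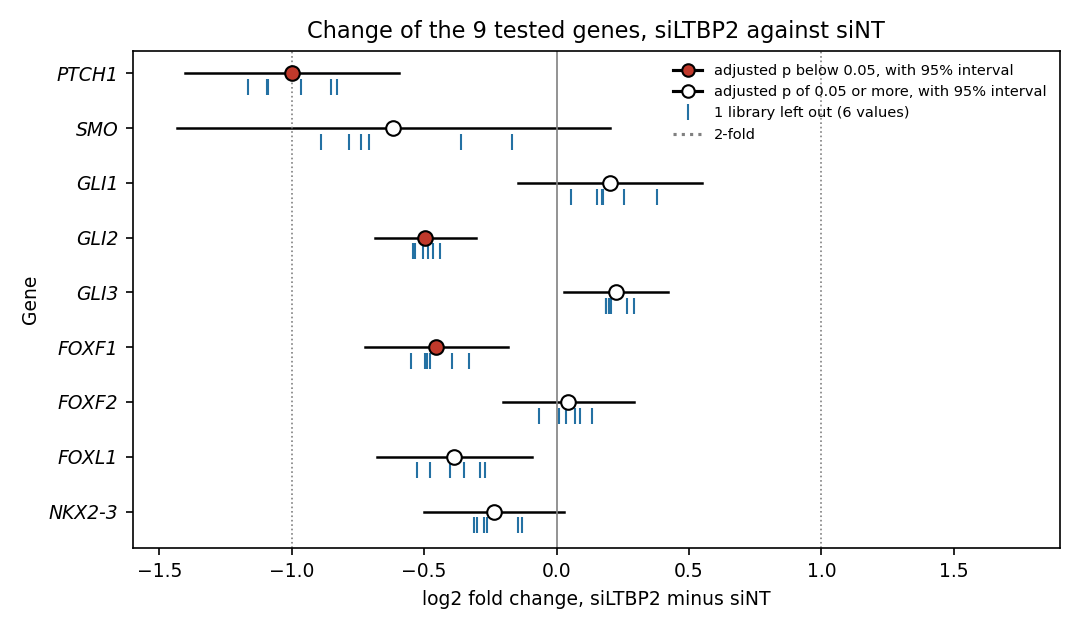
log2 fold change of the 9 tested genes, siLTBP2 minus siNT (horizontal axis), with the 95% interval. Red points have an adjusted p below 0.05, blue ticks are the values with each of the 6 libraries left out, and dotted lines mark 2-fold. PTCH1 lies on the 2-fold line, GLI2 and FOXF1 near -0.5, and the intervals of SMO, GLI1, FOXF2 and NKX2-3 include 0.

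Ratios of raw counts within a library do not depend on scaling between libraries and put members of like role side by side. They were chosen after the levels had been seen. The ratio of *PTCH1* to *GLI1*, both targets of the pathway, was 8.71, 6.84 and 5.49 in siNT and 3.23, 2.87 and 3.08 in siLTBP2. All 3 siLTBP2 ratios lay below all siNT ratios, and their mean log2 values differed by -1.17. The ratio of *GLI2* to *GLI3* was 1.33, 1.30 and 1.05 in siNT and 0.800, 0.767 and 0.661 in siLTBP2, a log2 difference of -0.72. *GLI2* thus had more reads than *GLI3* in every siNT library and fewer in every siLTBP2 library. For *FOXF1* to *FOXF2* the ratio was 10.4, 11.2 and 8.60 in siNT and 7.84, 7.87 and 5.54 in siLTBP2, a log2 difference of -0.52. The exact permutation test, two-sided, gave p = 0.1 for each of the 3 ratios, the smallest p that the design allows, and 0.1 after adjustment over the 3. Each pair sets a gene called lower over one that was not. These p-values therefore restate the single genes and add no support to their calls.

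**Figure D3:**
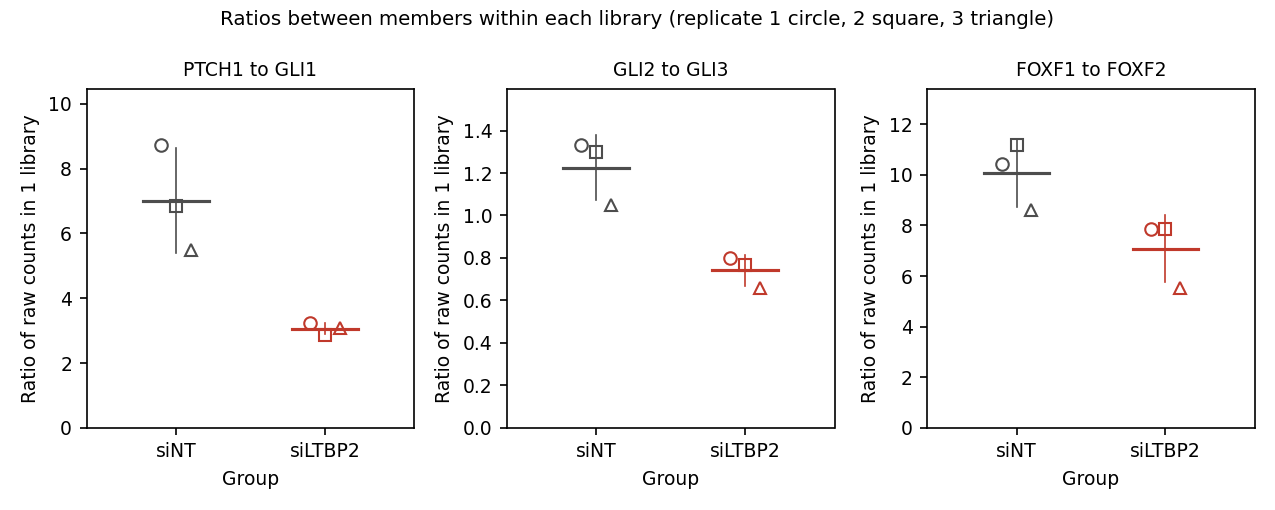
Ratio of the raw counts of 2 members within each library (vertical axes, from 0), for siNT in grey and siLTBP2 in red, with the mean and SD of 3 libraries. In each panel the siLTBP2 libraries lie below the siNT libraries; PTCH1 to GLI1 is 5.49 to 8.71 in siNT and 2.87 to 3.23 in siLTBP2.

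*FOXF1* (ENSG00000103241) was the most abundant of the 10 genes. It lies on the plus strand of chromosome 16, from 86510527 to 86515422, and has 2 exons. Its level was 542, 468 and 480 CPM in siNT and 410, 378 and 300.4 CPM in siLTBP2. All siLTBP2 libraries were below all siNT libraries, and siLTBP2 replicate 3 was the lowest. The means were 497 ± 39.5 and 363 ± 56.3 CPM (SD, n = 3), a log2 fold change of -0.45 (SE 0.12, 95% interval -0.72 to -0.18, edgeR QL adjusted p = 0.025). The call was lost without siNT replicate 1 (adjusted p = 0.077), siLTBP2 replicate 2 (0.062) or siLTBP2 replicate 3 (0.061) in the same test, where the changes were -0.39, -0.49 and -0.33.

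*FOXF2* (ENSG00000137273), the close relative of *FOXF1*, lies on chromosome 6, from 1389576 to 1395603. It had 52.0, 42.0 and 55.8 CPM in siNT and 52.3, 48.0 and 54.2 CPM in siLTBP2, and all siLTBP2 values lay within the range of siNT. The log2 fold change was 0.04 (SE 0.11, 95% interval -0.20 to 0.29, edgeR QL adjusted p = 0.83). The interval does not include the estimate for *FOXF1*, -0.45, but overlaps the interval of *FOXF1*, -0.72 to -0.18. The sign of the *FOXF2* change turned without siNT replicate 2 (-0.07).

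*FOXL1* (ENSG00000176678) marks the subepithelial mesenchymal cells under the crypts. It lies on the same chromosome as *FOXF1*, from 86576368 to 86583478. Its level was 134, 176 and 149 CPM in siNT and 111, 139 and 101 CPM in siLTBP2, so siLTBP2 replicate 2 lay above siNT replicate 1 and the groups overlapped. The log2 fold change was -0.39 (SE 0.13, 95% interval -0.68 to -0.09, edgeR QL adjusted p = 0.066). The second rule was met under the likelihood ratio test (0.034), by DESeq2 (0.035), with no low-count filter (0.0021), and without siNT replicate 1 (-0.48) or siLTBP2 replicate 2 (-0.53). With no low-count filter the SE was 0.104 for *FOXL1*, 0.105 for *FOXF1* and 0.107 for *PTCH1*, against 0.13, 0.12 and 0.18 in the main fit. The p-values of that setting thus say little of each gene's own spread.

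*NKX2-3* (ENSG00000119919) lies on chromosome 10, from 99532942 to 99536524. It had 53.0, 45.2 and 42.6 CPM in siNT and 44.03, 41.6 and 34.0 CPM in siLTBP2, and only siLTBP2 replicate 1 lay within the range of siNT. The log2 fold change was -0.24 (SE 0.12, 95% interval -0.50 to 0.03, edgeR QL adjusted p = 0.20). It was -0.13 without siLTBP2 replicate 3 and -0.15 without siNT replicate 1. With the replicate block the adjusted p from the same test was 0.014, at an SE of 0.076.

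Between genes, levels were compared per kilobase of annotated exon (CPM per kb). In siNT the order was *FOXF1* with 141 CPM per kb, *FOXL1* with 30.5, *NKX2-3* with 22.5, *FOXF2* with 20.4, *GLI2* with 10.3, *PTCH1* with 6.83, *GLI3* with 4.75, *GLI1* with 3.69, *SMO* with 0.29 and *HHIP* with 0.0049 CPM per kb. *FOXF1* was above 98.9% of all tested genes on this scale, and *SMO* above 15.1%. The ranges of the 3 siNT libraries overlapped for the neighbours *NKX2-3* and *FOXF2* and for *PTCH1* and *GLI3*, and not for other neighbours in this order. In siLTBP2 *PTCH1* was at 3.42 CPM per kb, below *GLI3* with 5.55, and their ranges did not overlap. With the length of the canonical transcript instead, *PTCH1* was at 13.6 CPM per kb in siNT, above *GLI2* with 11.2, and at 6.82 in siLTBP2, below *GLI3* with 9.11 and *GLI2* with 7.95, so the place of *PTCH1* in siNT depends on the length used.

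*FOXF1* and *FOXL1* share a cluster of forkhead genes, and 4 other genes that passed the low-count filter lie within 100 kb of them. *FENDRR*, a long noncoding RNA that starts next to *FOXF1* on the other strand, 1.4 kb away, was at 367 ± 46.4 CPM in the siNT group and 258 ± 45.5 CPM after siLTBP2 (SD, n = 3). Its log2 fold change was -0.51 (SE 0.14, edgeR QL adjusted p = 0.027), close to that of *FOXF1* itself. The *FENDRR* call was lost without siLTBP2 replicate 3 (-0.37), siNT replicate 2 (-0.41) or siNT replicate 1 (-0.52). *FOXC2*, which lies between *FOXF1* and *FOXL1* and is known for lymphatic and mesenchymal development, was higher in siLTBP2, with a log2 fold change of 0.55 (SE 0.10, adjusted p = 0.0043 from the same test). It was at 27.3 ± 3.18 CPM in the siNT group and 39.9 ± 0.38 CPM after siLTBP2 (SD, n = 3). *FOXC2-AS1*, which overlaps *FOXC2* on the other strand, had at most 37 counts in a library and a log2 fold change of -0.72 (adjusted p = 0.13). *MTHFSD*, 14.8 kb from *FOXF1*, had one of 0.16 (adjusted p = 0.39), or 0.075 without siLTBP2 replicate 1 and 0.099 without siNT replicate 3. The sources used here do not say whether counting used strand, so reads of *FOXC2* and *FOXC2-AS1* may not be fully separated.

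**Figure D4:**
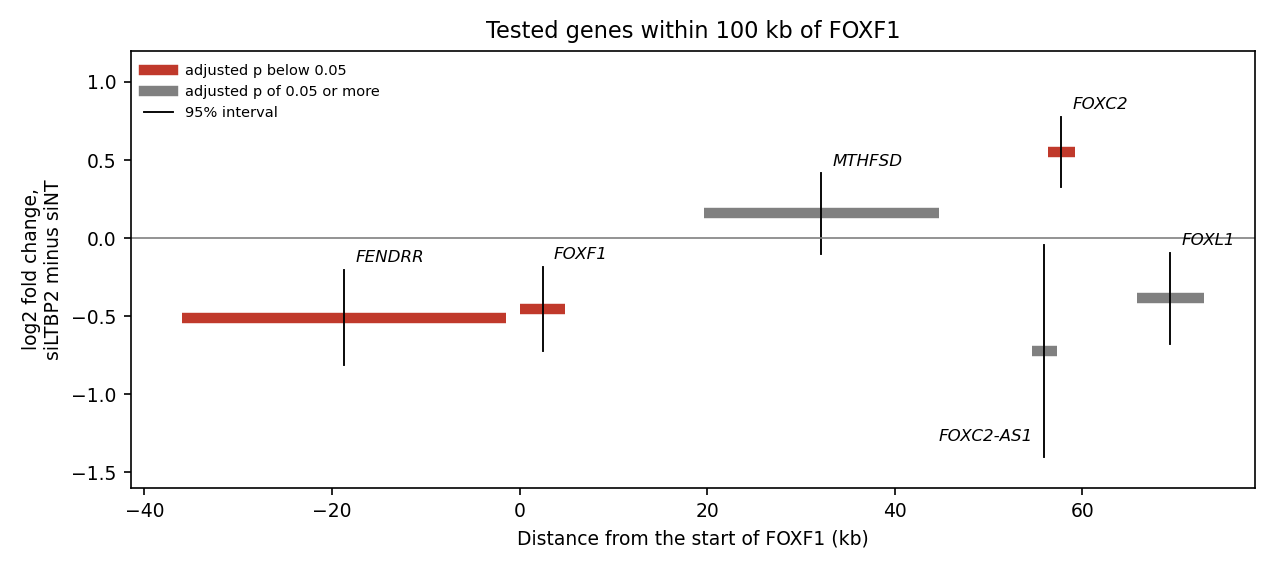
log2 fold change, siLTBP2 minus siNT (vertical axis), of the tested genes within 100 kb of FOXF1, by distance from its start in kb (horizontal axis). Thick bars span each gene, red where the adjusted p is below 0.05, and thin lines are 95% intervals. FENDRR (-0.51) and FOXF1 (-0.45) lie below 0 and FOXC2 (0.55) above it.

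Around *FOXF2*, *FOXQ1* had a log2 fold change of 0.18 (edgeR QL adjusted p = 0.52) and the noncoding *FOXF2-DT* one of 0.40 (adjusted p = 0.24). Without siNT replicate 2 or siLTBP2 replicate 3 the value of *FOXQ1* was 0.021 or 0.034, and that of *FOXF2-DT* was 0.26 without siLTBP2 replicate 3. Around *NKX2-3*, the noncoding *LINC01475*, 1.8 kb away, was at 6.48 ± 1.33 CPM in the siNT group and 4.91 ± 0.45 CPM after siLTBP2 (SD, n = 3), with a log2 fold change of -0.40 (adjusted p = 0.14), or -0.24 without siNT replicate 1. *GOT1-DT*, *SLC25A28* and *SLC25A28-DT*, also within 100 kb of *NKX2-3*, had log2 fold changes of 0.01, 0.16 and 0.02 (adjusted p of 0.99, 0.39 and 0.97). The signs of *GOT1-DT* and *SLC25A28-DT* turned with total counts and without siLTBP2 replicate 1 or siNT replicate 3, among others, and *SLC25A28* ranged from 0.078 without siNT replicate 1 to 0.28 without siNT replicate 3. None of these neighbours was called.

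Other genes of the pathway and of the gut mesenchyme were taken from 7 lists with 78 genes, of which 66 were tested. By the second rule 11 were higher and 11 lower in siLTBP2, or 33.3% in all, against 19.3% of all tested genes. The lists were chosen with earlier results of these data known. Shares called, here and for each list below, therefore describe the lists and are no test of the pathway. Their median log2 fold change was 0.08.

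The ligands were close to absent. *SHH* had 0 counts in all 6 libraries, which allows up to 0.056 to 0.069 CPM, *IHH* at most 6 and *DHH* at most 3. Of the 6 genes of ligand release that were tested, *DISP1*, whose product releases the lipid-bearing ligand from its source cell, was higher in siLTBP2, with a log2 fold change of 0.49 (edgeR QL adjusted p = 0.020). Its level rose from 7.81 ± 0.24 to 10.9 ± 1.15 CPM (SD, n = 3), and the call was lost without siLTBP2 replicate 1 (0.40) or siNT replicate 3 (0.46). Among the other receptors, the co-receptor gene *BOC* was lower, with 28.3 ± 3.08 CPM in the siNT group and 21.4 ± 0.60 CPM after siLTBP2 (SD, n = 3) and a log2 fold change of -0.40 (adjusted p = 0.023). The co-receptor genes *CDON* (0.44, adjusted p = 0.38) and *GAS1* (at most 9 counts, not tested) gave no call, and without siLTBP2 replicate 2 the change of *CDON* was 0.013.

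Of the 18 genes of intracellular transduction, all were tested, and 6 were lower and 1 higher in siLTBP2. That is 38.9% called, against 19.3% of all tested genes. The largest falls were in *ARRB2*, a beta-arrestin gene, from 20.2 ± 0.15 to 8.70 ± 1.07 CPM (SD, n = 3), and *ULK3*, a kinase that acts on GLI proteins, from 24.6 ± 2.33 to 11.9 ± 0.75 CPM (SD, n = 3). Their log2 fold changes were -1.21 and -1.05 (edgeR QL adjusted p = 1.2e-04 and 1.8e-04), and both were deregulated. *ULK3* changed by -0.97 without siNT replicate 3. *BTRC*, the ubiquitin ligase subunit through which GLI2 and GLI3 are processed, fell by 0.81 on the log2 scale (adjusted p = 4.5e-04). *GPR161* and *PRKACB*, a ciliary receptor and a catalytic subunit of protein kinase A that restrain the pathway, had log2 fold changes of -0.58 (adjusted p = 0.0020) and -0.39 (adjusted p = 0.0067), and *IQCE*, of the cilium base, one of -0.54 (adjusted p = 0.0060). *CUL3* was the gene that rose (0.31, adjusted p = 0.031), a call that held without siNT replicate 3 and was lost without any other 1 library. *SUFU*, which holds GLI proteins in the cytoplasm, was at 35.8 ± 6.94 CPM in the siNT group and 39.4 ± 6.83 CPM after siLTBP2 (SD, n = 3), with a log2 fold change of 0.14 (SE 0.15, from 0.0083 without siLTBP2 replicate 1 to 0.30 without siNT replicate 1, adjusted p = 0.59). In the 15 genes of primary cilium transport, *IFT88* was higher (0.45, adjusted p = 0.014, lost without siNT replicate 1 at 0.38) and the other 14 did not pass. That is 6.7% called, with a list median of 0.02.

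Target genes of the pathway outside the members went in both directions. Of 11 tested, 5 were higher and 2 lower, or 63.6% called, against 19.3% of all tested genes. This share may follow from the choice of the list, which was made with earlier results of these data known. Their median log2 fold change was 0.45. *SFRP1*, an inhibitor of Wnt ligands, rose from 87.4 ± 2.61 to 309 ± 30.5 CPM (SD, n = 3), a log2 fold change of 1.82 (edgeR QL adjusted p = 5.4e-06). *BMP4*, a growth factor gene induced by Hedgehog in the gut mesenchyme, fell from 12.4 ± 2.97 to 5.37 ± 1.35 CPM (SD, n = 3), a log2 fold change of -1.21 (adjusted p = 0.0033). *MYOCD*, the coactivator of smooth muscle genes, had a log2 fold change of -1.25 (adjusted p = 0.0069). Of the smooth muscle markers given above, *SMTN* and *ACTG2* were higher in siLTBP2 and *ACTA2* was not called. *BMP4* and *MYOCD* kept an adjusted p below 0.05 with any 1 library left out. However, *BMP4* was no longer deregulated without siNT replicate 1 (-1.17) or 2 (-1.06). Nor was *MYOCD* without siLTBP2 replicate 1 (-1.28), siNT replicate 2 (-1.10) or siNT replicate 1 (-1.14). The cyclin genes *CCND1* (0.45, adjusted p = 0.035) and *CCND2* (3.14, adjusted p = 0.0016), the cell cycle factor gene *FOXM1* (0.47, adjusted p = 0.0025) and the survival gene *BCL2* (0.51, adjusted p = 0.041) were higher. *CCND2* had only 5, 3 and 2 counts in siNT and 30, 38 and 19 in siLTBP2.

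Among 10 other tested transcription factor genes of the gut mesenchyme, 2 were higher and 2 lower, or 40% called, against 19.3% of all tested genes. *OSR1*, of the early intermediate mesoderm, rose from 10.9 ± 1.77 to 24.7 ± 1.21 CPM (SD, n = 3), a log2 fold change of 1.18 (edgeR QL adjusted p = 2.3e-04), and the homeobox gene *MEIS1* rose by 0.69 on the log2 scale (adjusted p = 5.3e-04). *TCF21* and *HLX*, both of the visceral mesenchyme, were lower, with log2 fold changes of -0.41 (adjusted p = 0.031) and -0.39 (adjusted p = 0.035). Some calls of the lists hung on single libraries. *TCF21* and *BCL2* kept their call only without siLTBP2 replicate 1 or siNT replicate 3, and *HLX* only without siNT replicate 2 or siLTBP2 replicate 3. *CCND1* kept its call only without siNT replicate 1 or siLTBP2 replicate 3, and *BOC* only without siNT replicate 2 or siLTBP2 replicate 3. Where the call was lost, the log2 fold changes ran from -0.43 to -0.28 for *TCF21*, from 0.34 to 0.54 for *BCL2*, from -0.40 to -0.33 for *HLX*, from 0.32 to 0.48 for *CCND1* and from -0.41 to -0.33 for *BOC*. Of the list, *HAND2* and *GATA4* had 0 counts in every library.

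**Figure D5:**
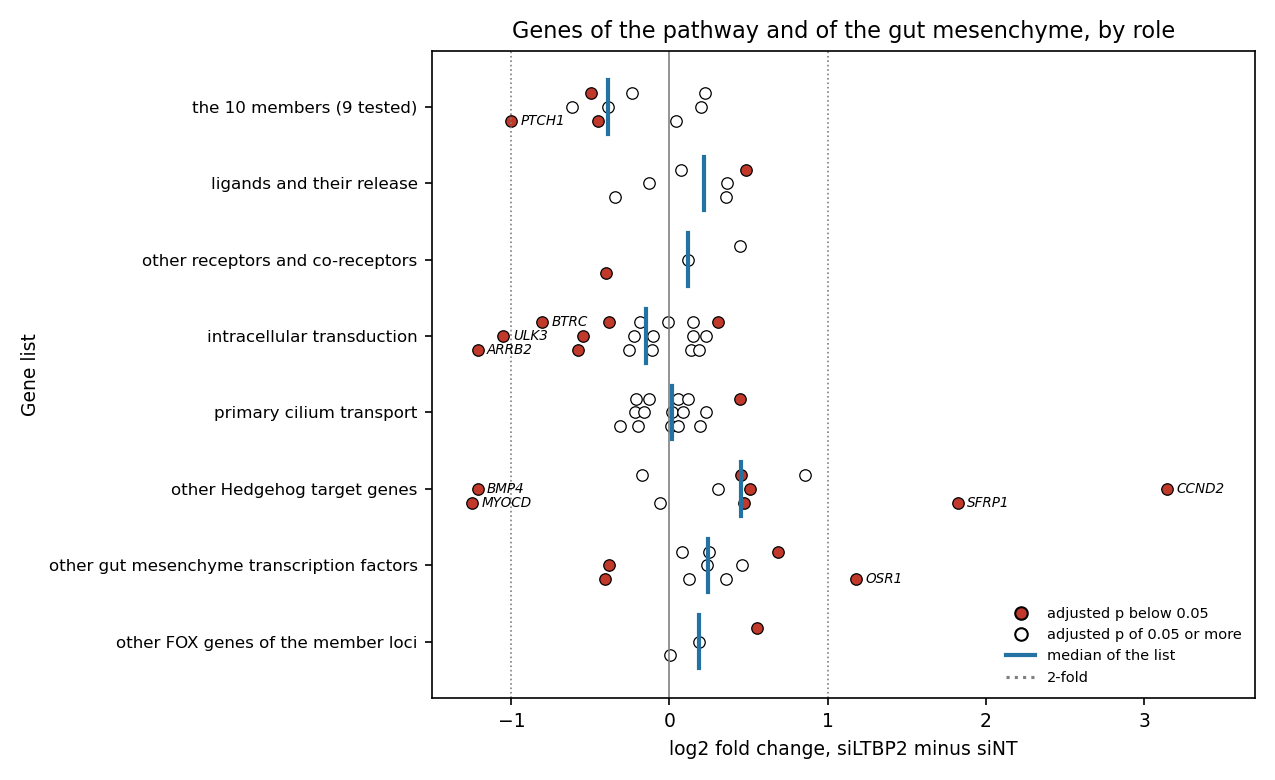
log2 fold change, siLTBP2 minus siNT (horizontal axis), of the 9 tested members and of the tested genes of 7 other lists (rows). Red points have an adjusted p below 0.05, blue bars are list medians and dotted lines mark 2-fold. ARRB2, ULK3, BMP4 and MYOCD lie beyond the lower line, and OSR1, SFRP1 and CCND2 beyond the upper one.

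The transcripts of the members were also searched for the word GCACCCA. Over 12314 tested coding genes whose 3′ UTR in GENCODE 44 spans 50 bases or more, the 1455 genes that carry it in the 3′ UTR had log2 fold changes with a median of -0.15, against 0.02 for the others. This word was found in an earlier search of these same libraries, so its carriers among the members are no independent evidence. Of the 9 tested members, 3 carried it in the 3′ UTR, against 11.8% of the coding genes, and they were *PTCH1*, *FOXL1* and *FOXF1*, with 1 copy each. *GLI2* carried 2 copies in its coding sequence and none in the 3′ UTR, and the other tested members had none in either part. With both parts counted, 4 of the 9 carried the word, against 23.9% of the coding genes, of which 13.8% had it in the coding sequence. The sites are shown with their surrounding bases so that the carriers can be compared, and capitals mark the word. They lie at chr9:95444795-95444801 on the minus strand (*PTCH1*), at chr16:86513398-86513404 (*FOXF1*) and chr16:86583307-86583313 (*FOXL1*) on the plus strand, and at chr2:120982864-120982870 and chr2:120988880-120988886 on the plus strand (*GLI2*) of GRCh38.
PTCH1 3′ UTR: atgtcagggaaGCACCCAgtgtcggctccc
FOXF1 3′ UTR: ggaaagcccccGCACCCAcacaggaattct
FOXL1 3′ UTR: agtaaccagctGCACCCAggagtgagaaaa
GLI2 coding, first site: gcaccagaatcGCACCCActccaacgagaa
GLI2 coding, other site: gcgcttccacaGCACCCAcaacgtgaaccc

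The word shares its last 6 letters with the GLI motif searched above, GACCACCCA. This is a likeness of letters only, and no link between them was tested. On either strand the word occurred in 5.32% of all promoter windows, against 0.24% for the GLI motif. The siRNA sequences were not analysed here, so the word was not compared with them. Its part in the changes of the members was not tested.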

How the data were processed

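RNA sequencing was available for 6 libraries of CCD18Co cells, 3 siNT and 3 siLTBP2. The authors depleted ribosomal RNA, sequenced stranded libraries in paired ends and aligned the reads to GRCh38 with STAR 2.7.1a in 2 passes, and raw counts per gene from HTSeq 0.11.2 were deposited (versions from the submitters' processing notes). The sources used here do not give the Ensembl release or the strand setting, so genes that overlap on opposite strands are uncertain. GENCODE 44 holds 60462 of the table's 60663 identifiers, at an identical start for 95.7%.

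The counts were analysed in R 4.3.3 with edgeR 4.0.16, where low counts were removed by filterByExpr, TMM factors applied and siLTBP2 compared with siNT, two-sided and without a block, by glmQLFit and glmQLFTest. The study's methods name the likelihood ratio test, run as an alternative with DESeq2 1.42.0, other scalings and filters, a replicate block and leaving out each library. The standard error was obtained from the log2 fold change and the root of its F statistic, and levels are CPM with TMM factors. Named were all members, genes of the 7 pathway and mesenchyme lists with an adjusted p below 0.05, *SHH*, *IHH*, *DHH*, *BOC*, *CDON*, *GAS1*, *SUFU*, *LTBP2*, and tested genes within 100 kb of the 4 gut mesenchyme members. Some listed genes are counted in their lists but not reported here by name. Cell type marker genes were named after their counts were seen. Members, lists and tests were chosen with earlier results of these data known. Intervals and floors of 3 counts cover the fit and counting error only. No library was a duplicate, since within a group the chi-square per degree of freedom was 28.0 to 55.0. The fits were tested on simulated data.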

Additional observations from a re-analysis of the deposited data

How the results depend on the processing

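The count of deregulated members, 0, became 1 (*PTCH1*) when total counts or upper-quartile factors set the scale, when no gene was filtered or when 1 CPM in 3 libraries was required, and lay between 0 and 1 with 1 library left out. The members with an adjusted p below 0.05 numbered 3 with any 1 library left out, but they were not always the same genes. *PTCH1* and *GLI2* were called in 6 of these 6 fits, *FOXF1* in 3, *FOXL1* in 2 and *GLI1*, as higher, in 1. *GLI1* ranged from 0.054 to 0.38 on the log2 scale, *FOXF1* from -0.55 to -0.33, *FOXL1* from -0.53 to -0.27 and *FOXF2* from -0.066 to 0.13, with a negative sign without siNT replicate 2. *FOXL1* passed under the likelihood ratio test (-0.39), by DESeq2 (-0.38) and with no low-count filter (-0.40). With no filter the SE of *FOXL1*, *FOXF1* and *PTCH1* was nearly alike, from 0.104 to 0.107. Calls in that setting therefore rest little on each gene's own spread. Over all genes, 680 were deregulated with no low-count filter, against 434, and 308 to 405 with 1 library left out, while 2158 to 2781 had an adjusted p below 0.05, lowest without siLTBP2 replicate 2. Of 126 values of members under the alternatives, 113 kept direction and side of the threshold, 3 lost and 9 gained a call, and 1 turned sign. Among 473 of other named genes, 32 lost a call, 1 gained one and 9 turned sign. Those 9 belong to *GOT1-DT* (-0.035 with total counts, -0.0049 with no low-count filter, -0.15 to 0.22 with 1 library left out) and *SLC25A28-DT* (-0.013 with total counts, -0.12 to 0.13 with 1 library left out). The causes were not tested. With no filter, *HHIP* had a log2 fold change of 0.86 (edgeR QL adjusted p = 0.63), which its counts cannot bear. Another scaling moved the median of all genes by at most -0.04.

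Libraries of both groups are numbered 1 to 3, and same-numbered libraries deviated from their group means with correlations of 0.28, 0.07 and 0.40. Pairing by number was not adopted, although 5 of the 6 libraries correlated best with their own number. The sample titles number the replicates and do not say that same-numbered libraries were paired. With the replicate block, 6 members had an adjusted p below 0.05, *GLI3* (0.22), *FOXL1* (-0.39) and *NKX2-3* (-0.24) in addition, as did 34 genes of the pathway lists and 6131 genes in all. In that fit the SE was 0.071 for *GLI2*, 0.072 for *PTCH1* and *GLI3*, 0.074 for *FOXL1* and 0.076 for *NKX2-3*. Without the block it ran from 0.087 for *GLI2* to 0.18 for *PTCH1*. The SE was thus nearly alike for these genes, so the added calls do not rest on each gene's own spread alone.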
